A study of Homo sapiens with 6 samples.

Results

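Mature miRNAs of the miR-192, miR-194 and miR-215 hairpins were followed in A549 cells given SMARCA4 on a plasmid and in A549 cells given that plasmid without an insert. The members were all rows of the deposited miRNA table named miR-192, miR-194 or miR-215, on either arm, which gave 5 of 787 rows: hsa-miR-192-5p, hsa-miR-192-3p, hsa-miR-194-5p, hsa-miR-194-3p and hsa-miR-215-5p (written without the species prefix from here on). miR-215-3p was not analysed here. A549 is an epithelial cell line established from a human lung adenocarcinoma and widely used as a line without functional SMARCA4 (BRG1), an ATPase of the SWI/SNF chromatin remodelling complex. The tested libraries came from A549 cells transfected with pcDNA4-SMARCA4 (3 libraries) and their controls from A549 cells transfected with pcDNA4 alone (3 libraries), both collected 48 h after a lipid transfection. The design text calls the 3 libraries per group independent biological replicates. The transfection was transient, and the sources used here do not give the share of cells that took up plasmid.

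miR-192 and miR-194 are made from a shared primary transcript, and miR-215 is made together with a second copy of miR-194 on another chromosome. In human cells, p53 activates both clusters, and hepatocyte nuclear factors drive the miR-192 and miR-194 transcript in liver, gut and kidney epithelium, where these miRNAs are abundant. miR-192 and miR-215 carry the same seed, the stretch of bases that pairs with target mRNAs, and the p53 inhibitor MDM2 is among their known targets. miR-194 has a different seed, and N-cadherin is among its known targets.

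The 5 mature sequences show which members can share targets and which can be mistaken for each other in counting. They are given 5′ to 3′ from RefSeq (GRCh38.p14), with the seed, bases 2 to 8, in capitals.

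miR-192-5p: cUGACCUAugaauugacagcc

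miR-215-5p: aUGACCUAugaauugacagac

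miR-194-5p: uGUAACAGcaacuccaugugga

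miR-194-3p: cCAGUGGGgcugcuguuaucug

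miR-192-3p: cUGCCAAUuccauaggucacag

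miR-192-5p and miR-215-5p share the seed UGACCUA and a run of 18 bases. Counted from 1 at the 5′ end, with the base of miR-192-5p first, they differ by C1A and C20A. Among the 689 table rows with a RefSeq mature sequence, these 2 were the ones with that seed, and each of the other 3 seeds occurred in 1 row. The sources used here do not say how reads that fit several miRNAs were counted, so the split between miR-192-5p and miR-215-5p depends on a step that could not be inspected.

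The 5 mature miRNAs come from 4 hairpins, printed next with the listed arms in capitals, because miR-194-5p has 2 sources and the other arms have 1 each.

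MIR192: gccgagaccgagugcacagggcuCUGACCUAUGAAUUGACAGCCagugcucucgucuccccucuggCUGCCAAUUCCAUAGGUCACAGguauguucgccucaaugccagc

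MIR194-2: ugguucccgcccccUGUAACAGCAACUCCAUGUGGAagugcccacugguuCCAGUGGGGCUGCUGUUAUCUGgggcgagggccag

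MIR215: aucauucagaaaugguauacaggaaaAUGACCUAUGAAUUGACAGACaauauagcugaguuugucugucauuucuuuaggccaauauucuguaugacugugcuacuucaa

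MIR194-1: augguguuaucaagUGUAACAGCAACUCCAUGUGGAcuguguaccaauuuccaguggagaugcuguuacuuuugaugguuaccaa

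MIR192 (chr11:64891137-64891246) and MIR194-2 (chr11:64891355-64891439) lie 108 bases apart on the minus strand of GRCh38, both in an exon of the lincRNA gene MIR194-2HG (GENCODE 29). MIR215 (chr1:220117853-220117962) and MIR194-1 (chr1:220118157-220118241) are neighbours as well, also on the minus strand, in an intron of IARS2, a gene for a mitochondrial isoleucyl-tRNA synthetase that is read from the plus strand. The mature miR-194-5p of MIR194-1 and that of MIR194-2 have the same sequence, so its value sums both loci. In RefSeq miR-194-3p is the 3p arm of MIR194-2, so it marks the chromosome 11 cluster together with miR-192.

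Libraries held 701885, 7274329 and 767810 miRNA reads in SMARCA4 replicates 1, 2 and 3, and between 881370 and 1079944 in the empty vector libraries. SMARCA4 replicate 2 thus had 8.33 times as many reads as the other 5 had on average. The level of SMARCA4 itself was not analysed here and gives no check of the labels. Of 7 epithelial marker miRNAs 6 were in the table, with a summed level of 425 to 623 normalized counts in SMARCA4 libraries and 356 to 677 in empty vector libraries. None of the 6 was at 0 in every library, and by limma 2 rose and 0 fell, where 9 of all 637 tested miRNAs (1.41%) were called. miR-141-3p rose, at 182 ± 30.3 normalized counts in SMARCA4 cells and 31.4 ± 10.8 in empty vector cells, and so did miR-203a-3p, at 39.7 ± 2.97 in SMARCA4 cells and 4.79 ± 0.972 in empty vector cells (SD, n = 3 each; limma adjusted p = 0.0124 for both). Both calls were lost on leaving out SMARCA4 replicate 1, SMARCA4 replicate 3, empty vector replicate 1 or empty vector replicate 3, with adjusted p up to 0.0853 for miR-141-3p and 0.0941 for miR-203a-3p. The most abundant of the 6, miR-200b-3p, was at 190 ± 51.8 in SMARCA4 cells and 422 ± 123 in empty vector cells (SD, n = 3 each; limma adjusted p = 0.109). Of the blood cell markers 3 of 8 were in the table. They summed to 7962 to 14458 normalized counts in SMARCA4 libraries against 5621 to 7213 in empty vector libraries, mostly miR-486-5p. By limma 0 of these 3 rose and 0 fell (miR-486-5p adjusted p = 0.257). miR-486-5p was highest in SMARCA4 replicate 2, at 14426. Groups did not overlap for 1 of these 3, and for 31.1% of all tested miRNAs. The part of either marker list in the values of the miR-192 clusters was not tested. The muscle markers miR-1-3p and miR-133a-3p were listed at 0 in every library, and of the neuron markers 2 of 4 were in the table, summing to 1785 to 1964 normalized counts in SMARCA4 libraries against 1080 to 1791 in empty vector libraries.

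The 5 arms covered a wide range of levels. Values are the deposited normalized read counts, in which each library's reads are multiplied by 1 factor. All mature forms are 21 or 22 bases long, but adapter ligation favours some miRNAs over others, so levels of different arms compare only roughly. miR-192-5p ranked 3 of 787 by its mean over the 6 libraries, with 236301 normalized counts, and made up 98.0% of the summed mean of the 5 arms. miR-194-5p ranked 46 with 4439, miR-215-5p ranked 161 with 198, miR-194-3p ranked 241 with 64.8, and miR-192-3p ranked 422 with 9.98. This order held in every library except SMARCA4 replicate 2, where miR-194-3p stood at 193 and miR-215-5p at 183.

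**Figure D1:**
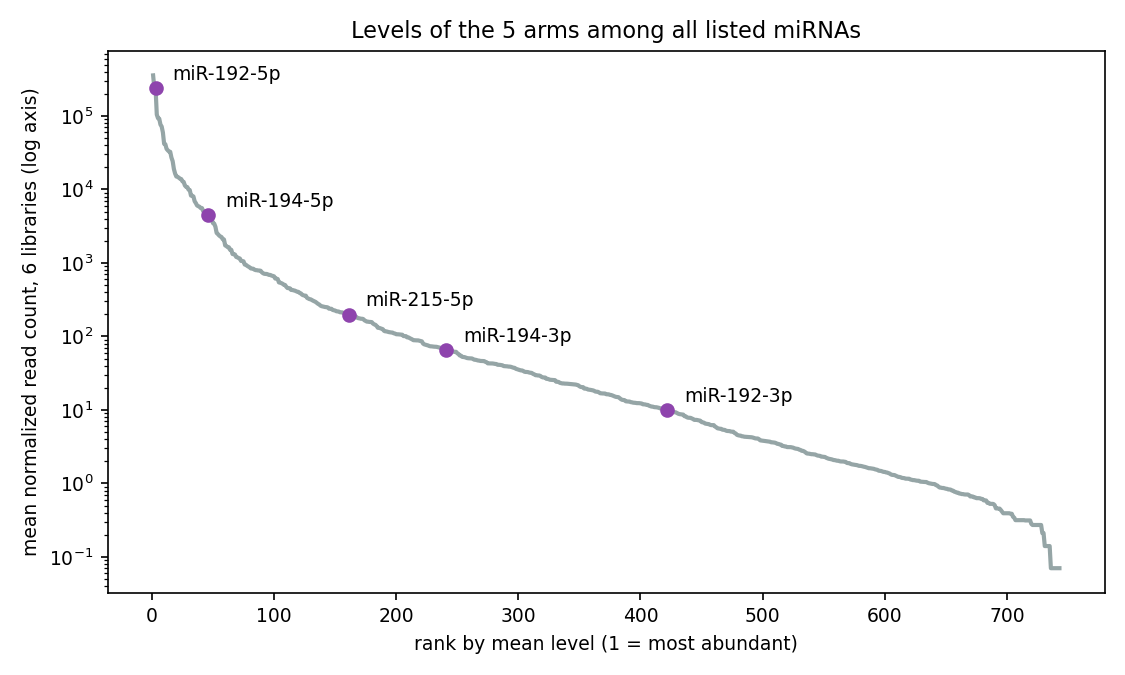
Mean normalized read count over 6 libraries on a log axis against rank, for every miRNA with a value above 0 (grey line), with the 5 arms as points. miR-192-5p sits at rank 3, and its 3p arm at rank 422.

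No arm passed the test between groups. limma was fitted on log2(value + 1) over the 637 miRNAs with a mean of at least 1, which all 5 arms passed, and p-values were adjusted over all 637 (Benjamini-Hochberg, threshold 0.05). By that test 0 of the 5 arms changed, against 1.41% of all miRNAs tested. edgeR and DESeq2 on the recovered reads also called 0 of 5, against 1.26% and 10.4% of miRNAs with an adjusted p. At an unadjusted p under 0.05 limma had 1 of 5, miR-215-5p, against 22.6% of all. The median log2 fold change of the 5 arms was 0.43, and that of all 637 was −0.047. RNA came from bulk cultures, in which a change in the number of cells that hold a miRNA and a change in its amount per cell cannot be told apart.

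miR-192-5p, the dominant guide arm of the chromosome 11 cluster, had 258062, 304401 and 250786 normalized counts in SMARCA4 replicates 1, 2 and 3, against 199884, 178726 and 225947 in empty vector replicates 1, 2 and 3. All SMARCA4 libraries lay above all empty vector libraries. Means were 271083 ± 29083 in SMARCA4 cells and 201519 ± 23653 in empty vector cells (SD, n = 3 each). The fitted difference was 1.35-fold (log2 fold change 0.43, SE 0.28, limma adjusted p = 0.381), with a 95% confidence interval from 0.874-fold to 2.07-fold. Groups did not overlap for 31.1% of all tested miRNAs, and for 15.9% with SMARCA4 higher, so such a separation was common in these libraries.

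The separation of miR-192-5p depended on the scale. As a share of each library's miRNA reads it took 14.1%, 9.90% and 13.8% in SMARCA4 replicates 1, 2 and 3, against 12.0%, 10.1% and 12.8% in empty vector replicates 1, 2 and 3. The 95% Wilson intervals were at most 0.163 percentage points wide, which covers counting error only. SMARCA4 replicate 2 was therefore the highest library by normalized count and the lowest by share, and on the share scale the groups overlapped. The deposited values summed to between 1661870 and 1835229 in the other 5 libraries and to 3073322 in SMARCA4 replicate 2. In that library the 9 let-7 and miR-98 5p arms held 20.9% of the total, against 6.54% to 7.78% in the other 5. With those 9 arms taken out of the total, miR-192-5p held 15.0%, 12.5% and 14.8% in SMARCA4 libraries and 13.0%, 10.8% and 13.9% in empty vector libraries, which still overlapped. Rescaling libraries to the same total brought the log2 fold change to 0.10 (limma adjusted p = 0.821), and it shifted the median of all tested miRNAs by −0.30. Quantile normalization, which ties a value to its rank, turned the difference of miR-192-5p to −0.30 (limma adjusted p = 0.620). miR-192-5p ranked 2 in 5 libraries and 4 in SMARCA4 replicate 2.

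On the deposited scale miR-192-5p was among the steadier miRNAs within a group. Its pooled within-group SD was 0.16 on the log2 scale, against a median of 0.43 over the 208 tested miRNAs with a mean of at least 100. Its highest library was 1.21 times its lowest within SMARCA4 cells and 1.26 times within empty vector cells. As a share of miRNA reads it ran from 9.90% to 14.1% within SMARCA4 cells and from 10.1% to 12.8% within empty vector cells.

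**Figure D2:**
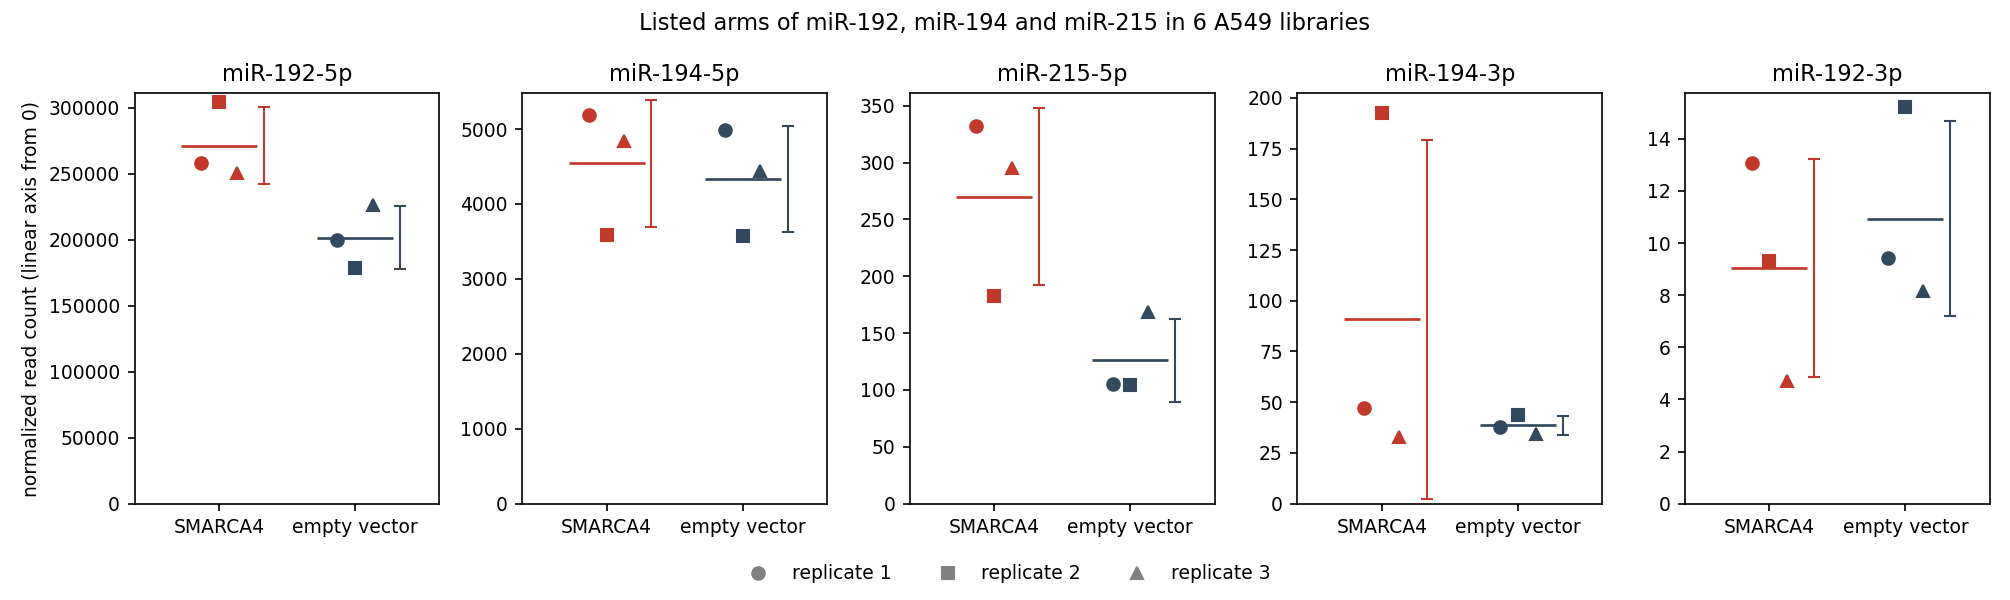
Normalized read count (linear axes from 0) of each arm in the SMARCA4 libraries (red, left) and the empty vector libraries (dark blue, right), with symbols for the replicate number, a line at the group mean and a bar of ± 1 SD (n = 3). miR-192-5p and miR-215-5p show no overlap of the groups, as did 31.1% of all tested miRNAs. miR-194-3p is at 193 in SMARCA4 replicate 2 and at 47.1 or lower elsewhere.

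miR-192-3p, the passenger arm of the same hairpin, was close to the limit of counting. It had 5, 22 and 2 reads in SMARCA4 replicates 1, 2 and 3, against 5, 8 and 5 reads in empty vector replicates 1, 2 and 3. In normalized counts these were 13.1, 9.29 and 4.72 in SMARCA4 libraries against 9.43, 15.2 and 8.18 in empty vector libraries. The groups overlapped, and the log2 fold change was −0.30 (SE 0.55, limma adjusted p = 0.779), with a 95% confidence interval from −1.55 to 0.95. For each count of miR-192-3p the 5p arm had between 11023 and 43827 (each value + 1), so the hairpin was measured almost wholly through its 5p arm. The log2 ratio of the arms was 14.81 ± 0.63 in SMARCA4 cells and 14.08 ± 0.59 in empty vector cells (SD, n = 3 each; exact two-sided permutation p = 0.3).

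miR-194-5p, which both clusters encode, had 5193, 3590 and 4843 normalized counts in SMARCA4 replicates 1, 2 and 3, against 4989, 3577 and 4441 in empty vector replicates 1, 2 and 3. The libraries of both groups were interleaved, with the library numbered 2 the lowest in each. Means were 4542 ± 843 in SMARCA4 cells and 4336 ± 712 in empty vector cells (SD, n = 3 each), with a log2 fold change of 0.063 (SE 0.27, limma adjusted p = 0.936). The 95% confidence interval ran from 0.683-fold to 1.60-fold, so differences within that range were not excluded with 3 libraries a group. Its sign was not stable: the log2 fold change was −0.26 after scaling all libraries to 1 total, −0.074 after quantile normalization, −0.043 without SMARCA4 replicate 1 and −0.069 without empty vector replicate 2.

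MIR192 and MIR194-2 share a transcript, and across the 6 libraries the log2 levels of the 5p arms had a Pearson r of 0.031, given as a description. SMARCA4 replicate 2 had the highest miR-192-5p value (304401) beside a low miR-194-5p value (3590), and r without that library was not computed. The ratio of miR-192-5p to miR-194-5p, each value + 1, was 49.7, 84.8 and 51.8 in SMARCA4 replicates 1, 2 and 3, against 40.1, 49.9 and 50.9 in empty vector replicates 1, 2 and 3. SMARCA4 replicate 2 stood above the other 5 libraries, where the ratio spanned 40.1 to 51.8. The mean log2 ratio was 5.91 ± 0.43 in SMARCA4 cells and 5.54 ± 0.19 in empty vector cells (SD, n = 3 each), a difference of 0.37 (exact two-sided permutation p = 0.3, where 0.1 is the smallest that 3 against 3 allows). Without SMARCA4 replicate 2 the difference was 0.12.

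miR-194-3p, the passenger arm of MIR194-2, had 47.1, 193 and 33.1 normalized counts in SMARCA4 replicates 1, 2 and 3, against 37.7, 43.7 and 34.3 in empty vector replicates 1, 2 and 3. A single library, SMARCA4 replicate 2, was high, on 456 reads where the other 5 libraries had 14 to 23. Means were 90.9 ± 88.4 in SMARCA4 cells and 38.6 ± 4.76 in empty vector cells (SD, n = 3 each). The log2 fold change was 0.79 (SE 0.61, limma adjusted p = 0.462). By edgeR and DESeq2 on the recovered reads it was 1.26 and 1.23 (adjusted p = 0.244 and 0.214). Without SMARCA4 replicate 2 the limma value was 0.038 (adjusted p = 0.958). The value in that library was 4.81 times the mean of the other 2 SMARCA4 libraries, a ratio reached by 26 of the 421 miRNAs with a mean of at least 10.

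The balance of the miR-194 arms differed in the same library. The ratio of miR-194-5p to miR-194-3p, each value + 1, was 108, 18.5 and 142 in SMARCA4 replicates 1, 2 and 3, against 129, 80.0 and 126 in empty vector replicates 1, 2 and 3. On the log2 scale the group difference was −0.73 (exact two-sided permutation p = 0.7), and without SMARCA4 replicate 2 it was 0.19. Read depth and the let-7 share also set SMARCA4 replicate 2 apart, and their part in these values was not tested.

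miR-215-5p, the member of the chromosome 1 cluster that shares its seed with miR-192-5p, had 332, 183 and 295 normalized counts in SMARCA4 replicates 1, 2 and 3, against 106, 105 and 168 in empty vector replicates 1, 2 and 3. By normalized count all SMARCA4 libraries lay above all empty vector libraries, with SMARCA4 replicate 2 and empty vector replicate 3 close to each other. Such a separation was seen for 31.1% of all tested miRNAs, and for 15.9% with SMARCA4 higher. Means were 270 ± 77.9 in SMARCA4 cells and 126 ± 36.6 in empty vector cells (SD, n = 3 each). The fitted difference was 2.12-fold (log2 fold change 1.08, SE 0.36), with an unadjusted limma p of 0.0148 and an adjusted p of 0.119 that missed the threshold. The 95% confidence interval of that fold, unadjusted for the 637 tests, was 1.20 to 3.72. As a share of miRNA reads miR-215-5p took 0.0181%, 0.00594% and 0.0163% in SMARCA4 replicates 1, 2 and 3. In empty vector replicates 1, 2 and 3 it took 0.00635%, 0.00589% and 0.00954%, so on the share scale the groups overlapped.

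Under 2 alternatives miR-215-5p passed. Without SMARCA4 replicate 2, the library with its lowest SMARCA4 value, the log2 fold change was 1.34 and the limma adjusted p was 0.0462, in a fit that called 6.44% of all miRNAs. With array weights, by which limma gives each library its own weight, it was 1.24 with an adjusted p of 0.0250, in a fit that called 14.1%. Over the other alternatives run, the adjusted p of miR-215-5p lay above the threshold and its log2 fold change stayed positive. That fold change lay between 0.76 with libraries rescaled to the same total (limma adjusted p = 0.355) and 1.31 without empty vector replicate 3.

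**Figure D3:**
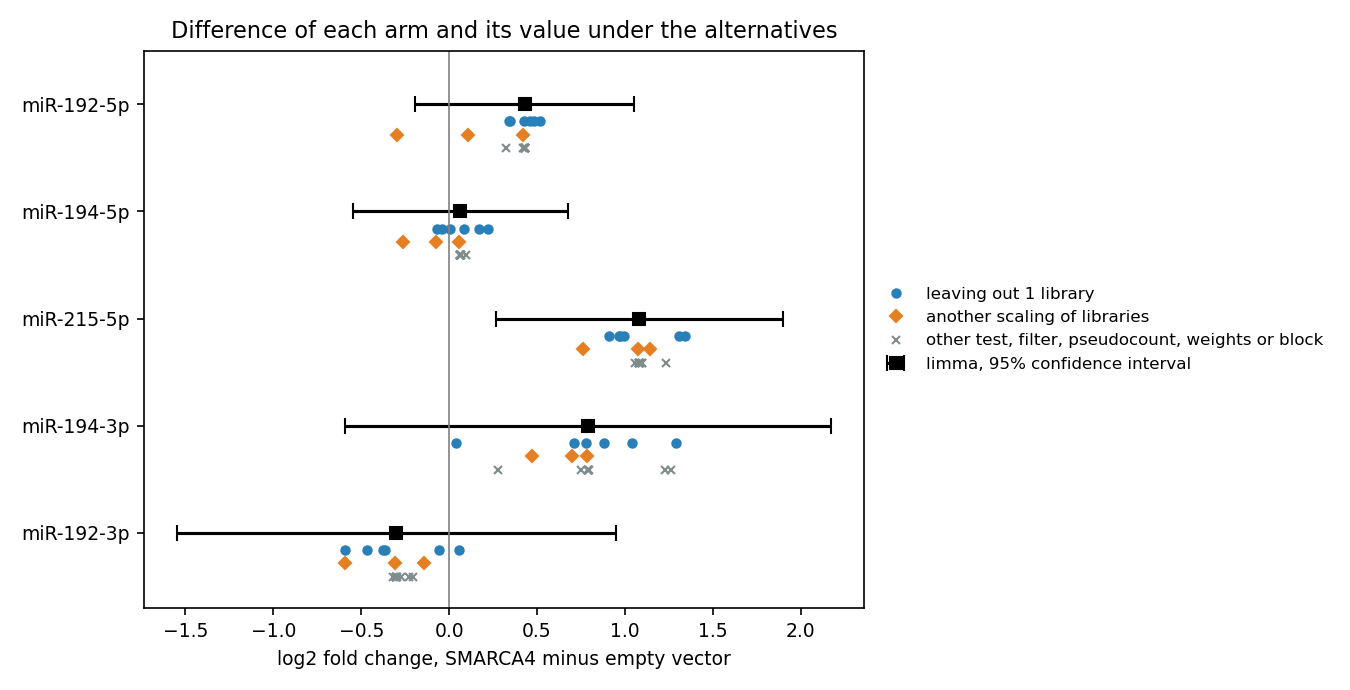
Log2 fold change of each arm, SMARCA4 minus empty vector (black squares with 95% confidence intervals), and the values under the alternatives (blue, 1 library left out; orange, another scaling; grey, other settings). miR-215-5p is positive throughout, at 0.76 to 1.34, while miR-194-5p has values on both sides of 0.

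miR-215-5p remained a small part of its seed family. Per 100000 reads of miR-192-5p there were 129, 60.0 and 118 reads of miR-215-5p in SMARCA4 replicates 1, 2 and 3, against 52.8, 58.5 and 74.5 in empty vector replicates 1, 2 and 3. SMARCA4 replicates 1 and 3 were above the other 4 libraries, and SMARCA4 replicate 2 lay within the empty vector range. miR-192-5p therefore supplied 99.9% of the reads of the pair in every library. The log2 ratio of miR-215-5p to miR-192-5p was −10.01 ± 0.60 in SMARCA4 cells and −10.66 ± 0.25 in empty vector cells (SD, n = 3 each), a difference of 0.65 (exact two-sided permutation p = 0.2), so the 2 members were not shown to differ in their response. That ratio was added after the values were seen. Over the 5 ratios and shares compared in this way, the lowest adjusted p was 0.5.

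**Figure D4:**
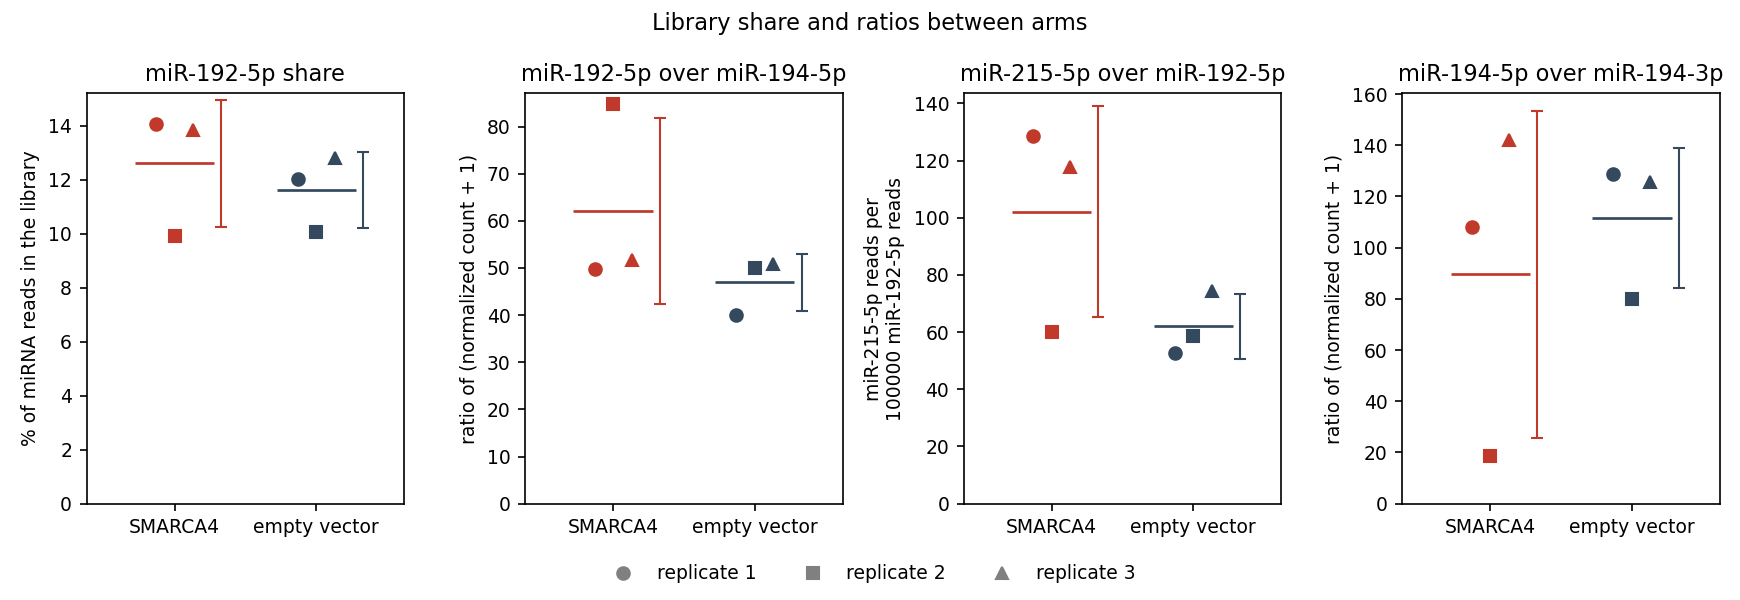
Share of miR-192-5p in the miRNA reads of each library and 3 ratios between arms, in SMARCA4 libraries (red, left) and empty vector libraries (dark blue, right), with symbols for the replicate number, a line at the mean and a bar of ± 1 SD (n = 3). The groups overlap in all 4 panels, and SMARCA4 replicate 2 (square) lies apart from the other SMARCA4 libraries in each.

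Together the 5 arms took 14.4%, 10.0% and 14.1% of the total in SMARCA4 replicates 1, 2 and 3, against 12.3%, 10.3% and 13.1% in empty vector replicates 1, 2 and 3. The means were 12.8 ± 2.43% in SMARCA4 cells and 11.9 ± 1.44% in empty vector cells (SD, n = 3 each; exact two-sided permutation p = 0.6). Nearly all of that share was miR-192-5p.

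Other miRNAs with a profile close to the members were ranked by Pearson correlation of log2(value + 1) over the 6 libraries, among 420 others with a mean of at least 10. These correlations are descriptions, since the libraries share their groups, their scaling and the depth of SMARCA4 replicate 2. Closest to miR-192-5p were miR-151a-3p (r = 0.992), miR-130b-3p (0.989), miR-425-5p (0.968), miR-629-5p (0.966) and miR-873-5p (0.964). Each of these had a positive log2 fold change, from 0.53 for miR-130b-3p to 1.58 for miR-873-5p, and none passed (limma adjusted p from 0.0822 to 0.278). Closest to miR-194-5p were miR-224-3p (r = 0.95), miR-484 (0.909), miR-17-3p (0.906), miR-301b-3p (0.900) and miR-501-3p (0.899), with log2 fold changes from 0.12 to 0.50. For miR-192-5p the other arms came far down this order: miR-215-5p stood at place 91 (r = 0.705), miR-194-3p at 105 (r = 0.651) and miR-194-5p at 212 (r = 0.031). For miR-194-5p, its own 3p arm was at place 344 (r = −0.61). SMARCA4 replicate 2, with miR-194-3p at its highest (193) and miR-194-5p low (3590), weighs on this r and on that of 0.031. Neither was computed without that library.

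The other miRNAs described as induced or matured under p53 did not pass by limma either. Of the 15 listed besides the members 14 were in the table and 12 were tested. By limma 0 rose and 0 fell, where 1.41% of all tested miRNAs were called. At an unadjusted limma p under 0.05 there were 4 of 12 (22.6% of all tested miRNAs). edgeR called 0 (1.26% of all). DESeq2 called 1 (miR-34c-5p, DESeq2 adjusted p = 0.0327), against 10.4% of the 425 with a DESeq2 adjusted p. The log2 fold change was positive for 9 of the 12, against 48.4% of all tested, and its median was 0.27 beside −0.047 for all tested miRNAs. The most abundant were miR-16-5p, with 15063 ± 1645 normalized counts in SMARCA4 cells and 13829 ± 3669 in empty vector cells, and miR-29a-3p, with 5260 ± 1772 in SMARCA4 cells and 6337 ± 2170 in empty vector cells (SD, n = 3 each; limma adjusted p = 0.783 and 0.705). Within the miR-34 family, direct p53 targets, miR-34a-5p was at 737, 956 and 609 in SMARCA4 libraries against 762, 548 and 636 in empty vector libraries (limma adjusted p = 0.668). miR-34c-5p was at 159, 174 and 151 in SMARCA4 libraries against 370, 352 and 299 in empty vector libraries, with no overlap. Its log2 fold change was −1.07 (limma adjusted p = 0.0828). No overlap was seen for 5 of the 12 tested on this list, and for 31.1% of all tested miRNAs. The p53 list thus held members on both sides of 0, as did the 5 arms.

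Of 14 further miRNAs enriched in liver, gut or kidney epithelium, 8 were in the table and 7 were tested. By limma 0 rose and 0 fell, where 1.41% of all tested miRNAs were called. At an unadjusted limma p under 0.05 there were 3 of 7 (22.6% of all tested miRNAs). edgeR called 0 (1.26% of all). DESeq2 called 2 (miR-10b-5p and miR-196b-5p, DESeq2 adjusted p = 0.0100 and 0.0241), against 10.4% of the 425. The log2 fold change was positive for 3 of the 7, against 48.4% of all tested, and its median was −0.17 beside −0.047 for all tested. The most abundant were miR-30a-5p, with 61833 ± 13537 normalized counts in SMARCA4 cells and 81521 ± 25253 in empty vector cells, and miR-31-5p, with 30334 ± 9817 in SMARCA4 cells and 34612 ± 10149 in empty vector cells (SD, n = 3 each; limma adjusted p = 0.494 and 0.747). miR-10b-5p was at 22173, 33942 and 23575 in SMARCA4 libraries against 9377, 10500 and 14163 in empty vector libraries (log2 fold change 1.22, limma adjusted p = 0.0656). The liver marker miR-122-5p was not analysed here.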

How the data were processed

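The data are small RNA libraries of A549 cells, 3 per group, prepared with Illumina's TruSeq kit for small RNA, per the labels' protocols. Per the submitters' processing notes, bcl2fastq 2.18.0.12 was used and the genome build was GRCh38. The sources used here name no aligner, counter or miRNA annotation. Each value in the authors' deposited table is a normalized signal of 1 mature miRNA, which the name of the table ties to TMM scaling. Whole reads were recovered for 100% of values, within 1e-06 reads, and 1 read was worth 0.422 to 2.61 normalized counts. The main test was limma 3.58.1 (R 4.3.3) on log2(value + 1) with a mean-variance trend, with the group as the only term. As alternatives, edgeR 4.0.16 and DESeq2 1.42.0 were run on recovered reads, and DESeq2 left 212 adjusted p-values undefined. Others changed the pseudocount, filter, scaling, trend, weights or block, or left out 1 library. Ratios and shares used exact permutation tests over libraries. All pairs of libraries differed by more than sampling noise (lowest chi-square per degree of freedom 6.61). The code of the fit was checked on simulated data, which gives no error rate for these libraries. All 5 names matched a RefSeq sequence. Named miRNAs were all 5 arms, the 5 closest to each of miR-192-5p and miR-194-5p, and, for 2 lists, the 2 most abundant members and any that passed. Beyond that rule, the let-7 share and every other miRNA named with a value, among them marker miRNAs, miR-34a-5p, miR-34c-5p, miR-10b-5p and miR-196b-5p, were chosen after their values were seen. Members and lists were chosen with earlier results of these data known.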

Additional observations from a re-analysis of the deposited data

How the results depend on the processing

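None of the 5 arms passed in the reported fit. Of 18 alternatives for miR-192-5p 17 kept its direction, and the exception was quantile normalization (−0.30). miR-194-5p reversed with libraries rescaled to the same total (−0.26) and quantile normalization (−0.074), without SMARCA4 replicate 1 (−0.043) and without empty vector replicate 2 (−0.069). Leaving out 1 library gave ranges of log2 fold change from −0.59 to 0.056 for miR-192-3p, 0.34 to 0.51 for miR-192-5p, −0.069 to 0.22 for miR-194-5p, 0.038 to 1.29 for miR-194-3p and 0.91 to 1.34 for miR-215-5p. miR-192-3p reversed without SMARCA4 replicate 3 (0.056), and was not tested at a mean of at least 10. miR-215-5p passed with array weights (1.24) and without SMARCA4 replicate 2 (1.34). The log2 difference in the arm ratio of miR-194 lay between −1.28 and 0.19 with 1 library left out. The number of miRNAs called, 9 in the reported fit, was 44 by DESeq2, 23 with no filter, 90 with array weights and from 0 to 41 with 1 library left out. It was 0 without SMARCA4 replicate 1 or empty vector replicate 1 (119 and 103 at an unadjusted p under 0.05), 1 without SMARCA4 replicate 3 and 2 without empty vector replicate 3. The causes were not tested. With a replicate block 13 were called and no call on the 5 arms changed (miR-215-5p adjusted p = 0.103). Deviations of same-numbered libraries correlated at 0.18, 0.12 and 0.034. SMARCA4 replicates 1 and 2 correlated best with their own number, and SMARCA4 replicate 3 with empty vector replicate 1 (0.14). Since that match was not complete, the numbers were not taken as pairs, and pairing was not excluded. Depth limits miR-192-3p most, at 2 to 22 reads a library.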
